A study of Homo sapiens with 6 samples.

Results

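LAMP3, MIOX, S100P and UNC13D were examined in 22Rv1 cells, an established human prostate cancer line, after treatment with either of 2 small molecules directed at the linker histone variant H1-10. These 4 genes, of 20297 in the table, were taken as large rises with Drug_CN27 that lie outside the core of the amino acid response. The members were thus chosen by their measured difference between Drug_CN27 and vehicle, and that difference is described below without a test. The groups were vehicle, Drug_0120 and Drug_CN27, with 2 libraries each, all from the same line, and the treatment protocol calls Drug_0120 0120-0018 and Drug_CN27 CN27. Each compound was used at its own IC50; neither concentration nor treatment time is stated in the sources used here, and the doses cannot be taken to match. RNA was measured by sequencing of polyadenylated RNA, and levels are the authors' TPM, a transcript share scaled for gene length and library total.

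The 4 genes encode unrelated proteins. LAMP3 encodes a glycoprotein of the lysosomal membrane, best known from mature dendritic cells and also raised by the unfolded protein response. MIOX encodes myo-inositol oxygenase, an iron enzyme best known from kidney that opens the myo-inositol ring to give glucuronate. S100P encodes a small calcium-binding protein of the EF-hand type, which binds ezrin inside cells and the receptor RAGE outside them and is raised in several carcinomas. UNC13D encodes Munc13-4, which works with Rab27 to prime secretory lysosomes and lytic granules for fusion, and its loss causes an inherited failure of cytotoxic lymphocytes.

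Markers of the labelled line were present in vehicle but uneven in level. The prostate factor HOXB13 was at 116 ± 1.24 TPM and the keratin KRT8 at 755 ± 46.6 TPM (mean ± SD, n = 2), while KLK3 was at 6.91 TPM and TMPRSS2 at 3.67 TPM. Of the 10 prostate luminal markers listed, 2 rose and 7 fell with Drug_0120, HOXB13 and KRT8 among the 7. With Drug_CN27, 4 rose and 4 fell. Of all tested genes, 36.0% were called higher and 45.5% lower with Drug_0120, and 43.7% and 26.6% with Drug_CN27. Of 15 leukocyte and dendritic cell markers, 10 were below 1 TPM in every library, CD3E and PRF1 were listed at 0 in all 6, and the summed level of the list was 66.1 to 66.7 TPM in vehicle, 25.4 to 25.9 TPM with Drug_0120 and 26.0 to 27.1 TPM with Drug_CN27. Of 9 kidney tubule markers, 7 were below 1 TPM in every library, and the sum was 1.66 to 2.63 TPM in vehicle, 4.81 to 5.30 TPM with Drug_0120 and 1.85 to 1.95 TPM with Drug_CN27. The tested pair, PDZK1 and SLC5A2, reached 1 TPM with Drug_0120 alone and were tested through it. They passed as higher there, at log2 differences of 0.93 and 0.94, and did not pass with Drug_CN27. The part of these markers in the MIOX result was not tested. Of 8 fibroblast markers, 3 were below 1 TPM throughout, and the sum was 47.4 to 49.1 TPM in vehicle, 29.7 to 31.6 TPM with Drug_0120 and 34.8 to 35.2 TPM with Drug_CN27. The TPM held by genes outside the table was 18.7% ± 0.829 in vehicle, 28.4% ± 0.604 with Drug_0120 and 19.0% ± 0.857 with Drug_CN27 (SD, n = 2). Its part in the differences from vehicle was not tested. No sequencing depth can be read from TPM, so that behind each value is unknown.

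RefSeq (build GRCh38.p14) gave promoters for 2 of the 4 genes, MIOX and S100P. The 250 bases before each start are shown for this pair because LAMP3 and UNC13D had no promoter there. Capitals mark every match to the 6 motifs searched on both strands. For S100P the window is chr4:6693628-6693877 on the plus strand, and for MIOX it is chr22:50486609-50486858 on the plus strand.
S100P: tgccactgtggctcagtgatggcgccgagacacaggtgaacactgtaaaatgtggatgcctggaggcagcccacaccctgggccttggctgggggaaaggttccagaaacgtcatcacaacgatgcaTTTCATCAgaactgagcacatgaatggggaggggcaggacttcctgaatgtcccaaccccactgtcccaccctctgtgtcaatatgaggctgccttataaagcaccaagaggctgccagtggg
MIOX: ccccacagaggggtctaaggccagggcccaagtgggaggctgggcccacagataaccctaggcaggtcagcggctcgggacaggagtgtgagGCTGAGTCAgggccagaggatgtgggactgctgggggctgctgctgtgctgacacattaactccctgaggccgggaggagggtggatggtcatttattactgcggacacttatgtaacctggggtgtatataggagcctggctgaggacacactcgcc

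The match in S100P begins 123 bases before the start and reads TTTCATCA, the reverse complement of TGATGNAA. Those are letters of the composite element that ATF4 binds with C/EBP proteins, and 3.14% of the 35116 promoters in the RefSeq table held them. The capitals in MIOX, GCTGAGTCA, hold a pair of overlapping matches. The longer is the reverse complement of TGACNNNGC, the core of the antioxidant response element, held by 10.9% of promoters. The shorter begins 156 bases before the start and is the AP-1 letters TGACTCA on the reverse strand, held by 4.20% of promoters. Neither window held TCACGTGA (0.854% of promoters), TGACGTCA (1.65%) or the endoplasmic reticulum stress response element (0.0740%). A match describes these letters alone.

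LAMP3 (ENSG00000078081.7_3, chromosome 3, minus strand) was at 0.814 and 0.689 TPM in the vehicle libraries. It was at 10.39 and 10.48 TPM with Drug_0120, and at 24.5 and 22.1 TPM with Drug_CN27. The 3 groups did not overlap. For Drug_CN27 and vehicle that separation is bound up with the choice of the genes, and the share of all genes so separated is not given here. Both vehicle libraries lay below the 1 TPM that a gene had to reach in at least 2 libraries to be tested. LAMP3 was thus tested through its treated libraries. The mean with Drug_CN27 was 31.0 times that in vehicle, and on the log2(TPM + 1) scale, which understates changes of low genes, the difference was 3.79 ± 0.10 (SE of the fit). Of 13606 tested genes, 2 had a larger log2 difference with Drug_CN27. In bulk RNA such a difference does not separate more transcript per cell from more cells that carry it.

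MIOX (ENSG00000100253.12_2, chromosome 22, plus strand) was at 0.976 and 1.45 TPM in vehicle. It was at 4.71 and 4.95 TPM with Drug_0120, and at 21.8 and 23.2 TPM with Drug_CN27. The groups again did not overlap, with the same limit as for LAMP3. The vehicle libraries differed more from each other, relative to their mean, than those of either compound. The mean with Drug_CN27 was 18.5 times that in vehicle (log2 difference 3.42 ± 0.12 SE), the 6th largest of all tested genes.

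S100P (ENSG00000163993.6_2, chromosome 4, plus strand) was at 20.8 and 23.1 TPM in vehicle. It was at 228 and 253 TPM with Drug_0120, and at 203 and 238 TPM with Drug_CN27. Here the libraries of the compounds overlapped each other and both lay well above vehicle. The mean with Drug_CN27 was 10.0 times that in vehicle (log2 difference 3.27 ± 0.09 SE), and S100P was the most abundant of the 4 genes in every group on this length-scaled unit. It ranked 6346th of the 13606 tested genes by level in vehicle, 389th with Drug_0120 and 606th with Drug_CN27.

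UNC13D (ENSG00000092929.11_4, chromosome 17, minus strand) was at 1.09 and 0.945 TPM in vehicle. It was at 2.48 and 2.42 TPM with Drug_0120, and at 13.4 and 14.8 TPM with Drug_CN27. The groups did not overlap, with the same limit as for LAMP3, and the Drug_0120 libraries lay much nearer to vehicle than to Drug_CN27. The mean with Drug_CN27 was 13.8 times that in vehicle (log2 difference 2.90 ± 0.10 SE). Among all tested genes S100P had the 8th and UNC13D the 13th largest log2 difference with Drug_CN27. A narrower ranking took called rises of named genes with a mean of at least 5 TPM over the 6 libraries. It also required both Drug_CN27 libraries to lie above both vehicle libraries, and 4806 genes met all conditions. UNC13D was 10th there, at 2.90, and the first gene outside the leading 10, SPX, which encodes the peptide hormone spexin, was at 2.85. LAMP3, MIOX and S100P were 3rd, 5th and 7th in that ranking, among CHAC1, SLC7A11, ASNS, PCK2, CALCA and GDF15. Its conditions use the Drug_CN27 and vehicle values that chose the members. That the members met them is thus bound up with the choice, and their places are description alone. LAMP3, MIOX and UNC13D reached the mean of 5 TPM through their treated libraries.

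**Figure D1:**
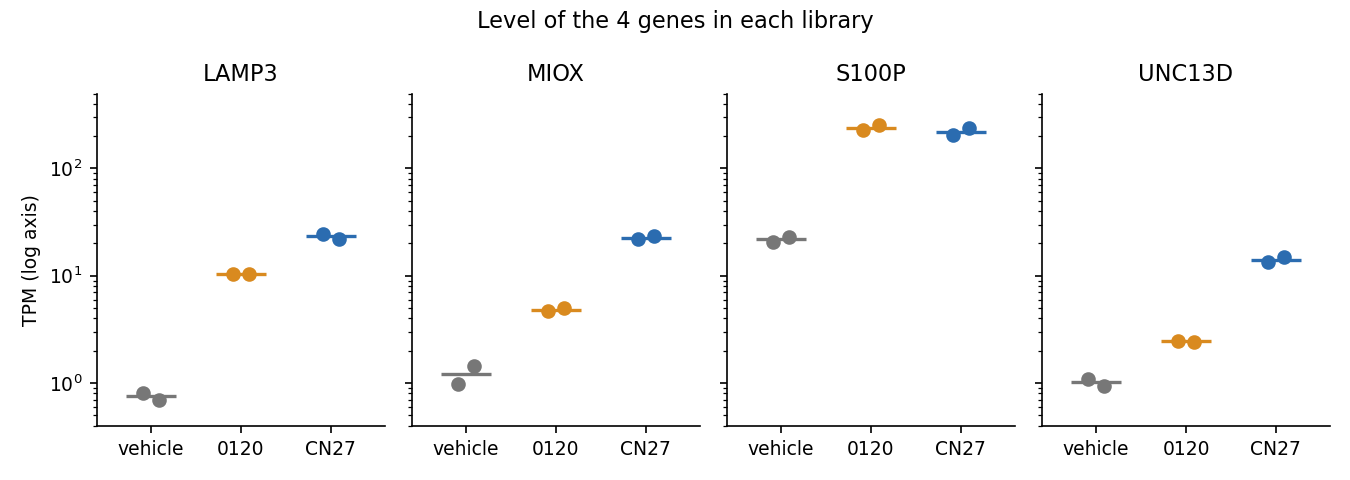
TPM of each gene on a log axis in the 2 libraries of each group; points are libraries and horizontal lines are group means. Levels rise from vehicle through Drug_0120 to Drug_CN27 for LAMP3, MIOX and UNC13D, while the S100P libraries of both compounds overlap at 203 to 253 TPM.

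The choice of the genes was stated on rises with Drug_CN27, not on those with Drug_0120. The Drug_0120 comparison still shares the vehicle libraries with the one that chose them. Earlier results of these data were also known at that choice, so the p-values below are not fully independent of it. All 4 genes rose with Drug_0120, beside 36.0% of all tested genes called higher in that comparison. S100P rose most, to a mean 10.9 times that in vehicle (log2 change 3.39 ± 0.09 SE, limma adjusted p = 1.42e-08). LAMP3 rose to 13.9 times its vehicle level (2.71 ± 0.10, limma adjusted p = 4.23e-08). S100P leads on the log2(TPM + 1) scale and LAMP3 on the ratio of means, because the added 1 TPM weighs on the low vehicle level of LAMP3.

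MIOX rose to 3.98 times its vehicle level with Drug_0120 (log2 change 1.40 ± 0.12 SE, limma adjusted p = 6.25e-06). UNC13D rose least, to 2.41 times (0.77 ± 0.10, limma adjusted p = 9.92e-05). Each of this pair had a vehicle library below 1 TPM, MIOX at 0.976 TPM in replicate 1 and UNC13D at 0.945 TPM in replicate 2. Both thus needed treated libraries, where they are high, to be tested. By size of rise among all tested genes, S100P was 35th, LAMP3 89th, MIOX 751st and UNC13D 2302nd with Drug_0120. The 4 genes thus spread widely in their response to Drug_0120, from among the leading rises to a change below 2-fold on the log2(TPM + 1) scale. For comparison, 11.6% of tested genes rose by at least 1 log2 with Drug_0120 and 7.39% with Drug_CN27. No other annotated gene overlaps any of the 4 in GENCODE release 29, and only LAMP3 had a stretch of at least 95% identity in transcripts of another gene, of at most 103 bases in a transcript of 3375 bases.

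**Figure D2:**
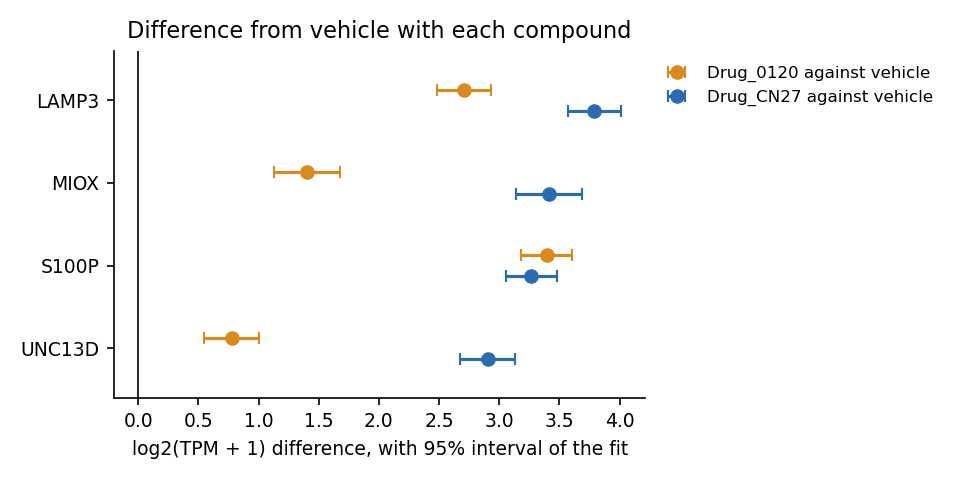
Log2(TPM + 1) difference from vehicle for each gene with Drug_0120 and Drug_CN27; points are fitted differences and bars their 95% intervals from limma (n = 2 libraries a group). With Drug_0120 the differences run from 0.77 for UNC13D to 3.39 for S100P, and with Drug_CN27, which chose the genes, from 2.90 to 3.79. The Drug_CN27 bars describe the error of the fit alone. They are not a test, because the differences they surround chose the genes.

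Set side by side, the Drug_0120 difference came to 104% of the Drug_CN27 difference for S100P, 71.4% for LAMP3, 41.1% for MIOX and 26.7% for UNC13D. Mean levels with Drug_CN27 were 5.75 times those with Drug_0120 for UNC13D, 4.66 times for MIOX, 2.23 times for LAMP3 and 0.917 times for S100P. The log2 difference of Drug_CN27 from Drug_0120 was 2.13 for UNC13D, 2.01 for MIOX and 1.08 for LAMP3. For S100P it was -0.13 (95% interval -0.34 to 0.08), and it moved to -0.42 with median-of-ratios scaling, which lowers the Drug_CN27 libraries against those of Drug_0120. These values, the S100P interval among them, are a description and not a test. The Drug_CN27 libraries chose the genes, and the doses are not known to match.

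Among the relatives of LAMP3, LAMP1 and LAMP2, the abundant structural glycoproteins of the lysosomal membrane, rose with both compounds. LAMP2 went from 41.9 and 40.3 TPM in vehicle to 107 and 97.5 TPM with Drug_0120 (log2 change 1.29 ± 0.09, limma adjusted p = 1.93e-06) and to 85.3 and 71.2 TPM with Drug_CN27 (0.91 ± 0.09, adjusted p = 4.02e-05). LAMP1 rose by 0.54 with Drug_0120 and by 0.68 with Drug_CN27. CD68, a family member best known from macrophages, reached 1 TPM with Drug_0120 alone, at 2.80 and 2.16 TPM, and so was tested through the group where it is high, with a log2 difference of 1.10. It had a log2 difference of -0.26 with Drug_CN27 at limma adjusted p = 0.0843, above the threshold; it passed as lower with quantile normalization or a pseudocount of 0.1. LAMP5, of brain and plasmacytoid dendritic cells, was below 1 TPM in every library and was not tested.

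Beside MIOX, ISYNA1 and IMPA2, which supply its substrate, fell with both compounds, while IMPA1 rose. ISYNA1, which makes inositol phosphate from glucose 6-phosphate, went from 126 and 141 TPM in vehicle to 19.9 and 21.8 TPM with Drug_0120 (log2 change -2.63 ± 0.09, limma adjusted p = 3.9e-08). With Drug_CN27 it was at 57.6 and 66.8 TPM (-1.09 ± 0.09, adjusted p = 1.5e-05). IMPA2, a phosphatase that frees inositol, fell by 3.82 with Drug_0120 and by 1.96 with Drug_CN27. Its relative IMPA1 rose by 0.81 with Drug_0120 and by 0.39 with Drug_CN27; the second call was lost with median-of-ratios scaling, with quantile normalization and without Drug_CN27 replicate 1. The inositol transporter gene SLC5A3 passed with neither compound, at log2 differences of 0.27 and -0.25; with either other scaling it passed as higher with Drug_0120 and lower with Drug_CN27.

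On the route that carries glucuronate on to xylulose, SORD, sorbitol dehydrogenase, fell by 3.08 with Drug_0120 and by 1.65 with Drug_CN27. SORD has a close pseudogene copy, so its values are uncertain. CRYL1, which oxidizes gulonate, went from 39.9 and 41.2 TPM in vehicle to 83.5 and 85.7 TPM with Drug_CN27 (log2 change 1.04 ± 0.06, limma adjusted p = 2.84e-06), and was at 39.4 and 41.9 TPM with Drug_0120. UGDH, which makes UDP-glucuronate, rose by 0.93 with Drug_CN27, CDIPT, which puts inositol into phospholipid, by 0.72 and, with Drug_0120, by 0.55, and AKR1A1, which reduces glucuronate, rose by 0.47 with Drug_0120. Of the 12 tested genes of this list other than MIOX, 4 rose and 6 fell with Drug_0120, where 36.0% of all tested genes were called higher and 45.5% lower. With Drug_CN27, 4 rose and 5 fell, beside 43.7% higher and 26.6% lower. The median log2 differences were -0.36 and -0.27, against -0.10 and 0.15 for all tested genes.

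Much of the S100 family was not expressed at a level that could be tested: of 18 other S100 genes, 11 were below 1 TPM in all 6 libraries and 6 of these were listed at 0 throughout. S100A10, the annexin A2 partner, went from 28.4 and 29.01 TPM in vehicle to 51.5 and 62.2 TPM with Drug_0120 and 62.3 and 53.7 TPM with Drug_CN27 (log2 changes 0.95 ± 0.10 and 0.99 ± 0.10, limma adjusted p = 2.8e-05 and 4.87e-05). S100A13, which takes part in the release of growth factors that lack a signal peptide, fell by 2.88 with Drug_0120 and by 0.79 with Drug_CN27. S100A6 and S100A1 fell by 1.76 and 1.57 with Drug_0120, and S100A4 fell by 1.07 with Drug_CN27. S100A2 moved in opposite directions at a low level, from 1.65 and 1.74 TPM in vehicle to 4.43 and 4.46 TPM with Drug_0120 and 0.666 and 0.944 TPM with Drug_CN27, and passed in each comparison. S100A11 rose by 0.65 with Drug_CN27.

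Of the genes for proteins that bind S100P, CACYBP fell by 1.33 with Drug_CN27 and by 1.27 with Drug_0120. EZR, ezrin, fell by 1.13 with Drug_0120 and was called higher by 0.18 with Drug_CN27, a call lost with median-of-ratios scaling. IQGAP1, a scaffold protein, rose by 0.37 with Drug_CN27, a call lost with median-of-ratios scaling and without vehicle replicate 2 or Drug_CN27 replicate 1. AGER, which encodes RAGE, was at 6.90 TPM in vehicle and passed with neither compound (log2 differences 0.21 and -0.08), though with either other scaling it passed as higher with Drug_0120 and, with quantile normalization, as lower with Drug_CN27. Of the 12 tested genes of the S100 list other than S100P, 2 rose and 6 fell with Drug_0120, beside 36.0% and 45.5% of all tested genes, and 4 rose and 6 fell with Drug_CN27, beside 43.7% and 26.6%. The number higher with Drug_0120 was 5 with median-of-ratios scaling or quantile normalization. The number higher with Drug_CN27 was 2 with median-of-ratios scaling and also without vehicle replicate 2 or without Drug_CN27 replicate 1. The median log2 differences were -0.64 and -0.20, against -0.10 and 0.15 for all tested genes.

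Genes of the machinery with which Munc13-4 works were mostly higher with Drug_CN27, as counted below. RAB27A, the small GTPase that recruits Munc13-4 to granules, went from 8.13 and 7.41 TPM in vehicle to 14.96 and 12.7 TPM with Drug_CN27 (log2 change 0.76 ± 0.11, limma adjusted p = 0.000331). With Drug_0120 it went the other way, to 3.55 and 3.15 TPM (-1.01 ± 0.11, adjusted p = 3.01e-05). SYTL1, a synaptotagmin-like Rab27 effector, likewise rose from 16.4 and 15.98 TPM to 50.8 and 58.9 TPM with Drug_CN27 (1.70 ± 0.10, limma adjusted p = 2.88e-06) and fell to 9.55 and 11.3 TPM with Drug_0120 (-0.59 ± 0.10, adjusted p = 0.00062).

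STX11 and STX3 rose with both compounds. STX11, whose product acts with Munc13-4 in cytotoxic granule release, went from 0.253 and 0.319 TPM in vehicle to 9.37 and 7.61 TPM with Drug_0120 (log2 change 2.88 ± 0.13, limma adjusted p = 1.45e-07) and 2.24 and 1.73 TPM with Drug_CN27 (1.21 ± 0.13, adjusted p = 6.06e-05). STX3, an apical membrane syntaxin, rose by 2.94 and 1.47. STX4 rose with Drug_CN27 by 0.47 and had a difference of 0.03 with Drug_0120 that did not pass. The effector SYTL5 rose by 0.71 with Drug_0120 and 1.24 with Drug_CN27. STX11 and SYTL5 were below 1 TPM in both vehicle libraries, so both were tested through the treated libraries. Of the other Munc13 genes, chosen for mention after their values were seen, UNC13B rose by 0.48 and 0.65, UNC13A fell by 0.49 and 0.50, and UNC13C was below 1 TPM in every library. DOC2A and BAIAP3, relatives with calcium-binding C2 domains, fell by 1.90 and 1.23 with Drug_0120 and had differences of -0.01 and 0.01 with Drug_CN27.

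Of the 23 tested genes of the exocytosis list other than UNC13D, 18 rose, STX11 and SYTL5 among them, and 1 fell with Drug_CN27, where 43.7% of all tested genes were called higher and 26.6% lower. With Drug_0120, 9 rose, the same pair among them, and 9 fell, beside 36.0% and 45.5%. The median log2 differences were 0.65 with Drug_CN27 and -0.08 with Drug_0120, against 0.15 and -0.10 for all tested genes. With median-of-ratios scaling, which sets the median of all genes near 0, the calls over the whole table with Drug_CN27 were 4582 higher and 4732 lower, against 5948 and 3624 in the TPM as deposited; with that scaling AP3B1 and MLPH lost their calls and VAMP8 passed as lower.

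**Figure D3:**
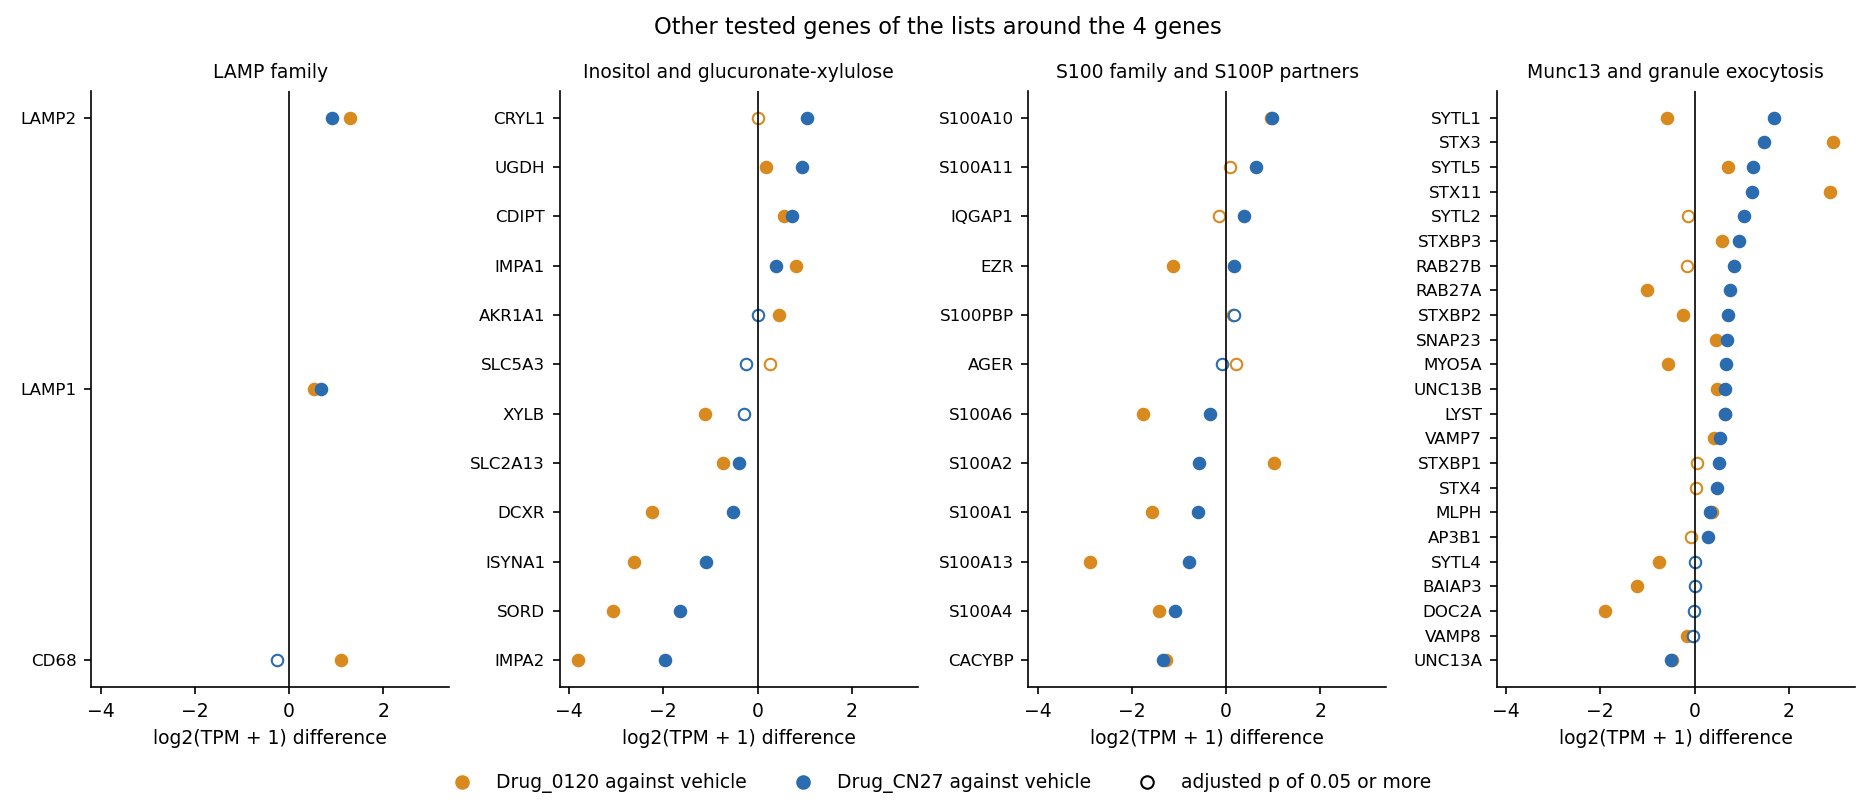
Log2(TPM + 1) difference from vehicle with Drug_0120 and Drug_CN27 for the other tested genes of 4 lists, sorted within each list by the Drug_CN27 value; filled points passed at limma adjusted p under 0.05 and open points did not, and points that coincide hide each other. In the exocytosis list most Drug_CN27 points lie right of 0, with 18 of 23 called higher, while Drug_0120 points lie on both sides.

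In gene order on chromosome 22, MIOX directly follows ADM2 on the same strand. ADM2 encodes the peptide hormone adrenomedullin 2 and is a target of ATF4. The vehicle libraries held ADM2 at 36.3 and 37.0 TPM, the Drug_0120 libraries at 83.8 and 85.1 TPM and those of Drug_CN27 at 152 and 169 TPM. It thus rose with both compounds (log2 changes 1.18 ± 0.07 and 2.10 ± 0.07, limma adjusted p = 4.47e-07 and 2.14e-07) in the same order as MIOX. The MIOX level was 3.31% of the ADM2 level in vehicle, 5.72% with Drug_0120 and 14.02% with Drug_CN27, so the ratio was not constant. Whether reads that run on from ADM2 count towards MIOX was not tested. On the other side LMF2, on the opposite strand, fell by 0.77 with Drug_0120 and had a difference of 0.02 with Drug_CN27 that did not pass. SBF1 rose by 0.34 and 0.51, and NCAPH2 fell by 0.34 and 0.29; the first of the NCAPH2 calls was lost with both other scalings and the second without vehicle replicate 2 or Drug_CN27 replicate 1.

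**Figure D4:**
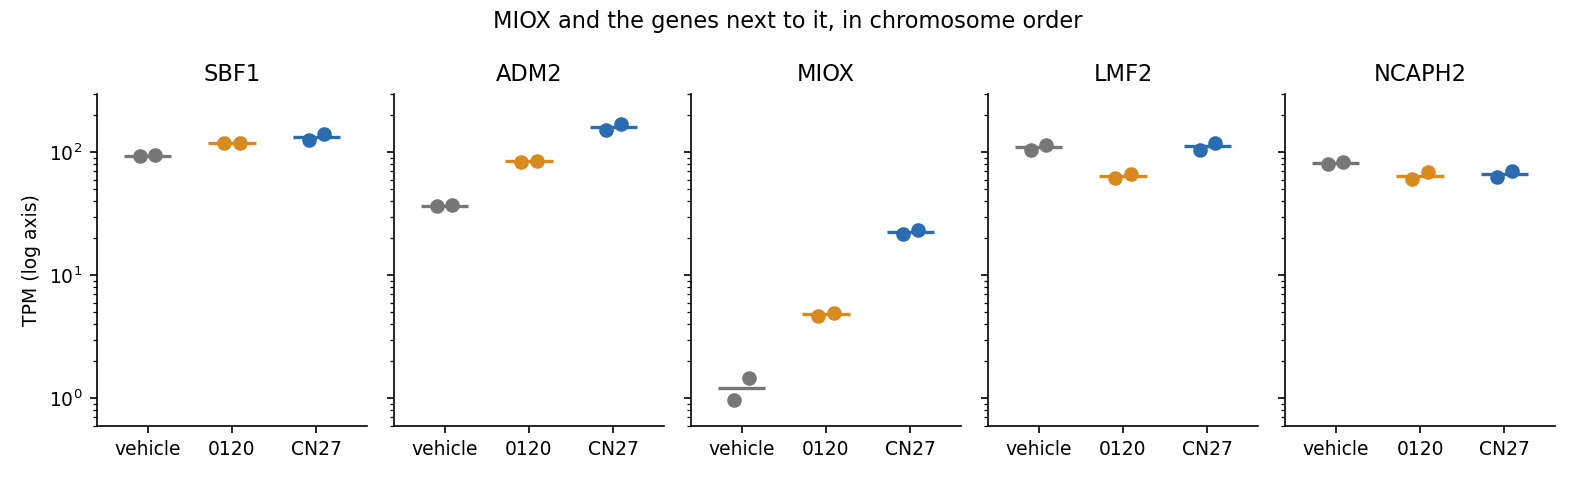
TPM on a log axis of MIOX and the genes on either side of it in chromosome order, in the 2 libraries of each group; points are libraries and horizontal lines are group means. ADM2 and MIOX both step up from vehicle through Drug_0120 to Drug_CN27, and SBF1, LMF2 and NCAPH2 stay within a narrower range.

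Next to LAMP3, MCCC1, a mitochondrial carboxylase subunit, was at 56.5 TPM in vehicle and had log2 differences of 0.07 with Drug_0120, which did not pass, and 0.23 with Drug_CN27, a call lost with median-of-ratios scaling or without vehicle replicate 2. DCUN1D1 rose by 0.64 and 0.80, B3GNT5, which reached 1 TPM with Drug_0120 alone and was tested through it, rose by 1.33 there and did not pass with Drug_CN27 (0.18), and MCF2L2 was below the test limit, at 0.224 TPM in vehicle and 0.825 TPM with Drug_CN27. Next to S100P, MRFAP1L1 rose by 1.04 and 1.31 and BLOC1S4, a subunit of a complex for lysosome-related organelles, by 1.71 and 0.67. MRFAP1 had differences of -0.24 and -0.02, of which the first passed but not with either other scaling, and MRFAP1L2 was not analysed here. MRFAP1 and MRFAP1L1 are close relatives, so their values are uncertain.

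Next to UNC13D, H3F3B (now H3-3B), a replication-independent histone gene with many processed copies that make it uncertain, rose by 0.35 and 1.14, and WBP2 rose by 0.39 and 0.42. TRIM47 fell by 1.97 and 0.81, and UNK had differences of -0.26 and 0.47, of which the first was lost with both other scalings and without either library of vehicle or of Drug_0120. Of the 14 tested neighbours of the 4 genes, 8 rose, B3GNT5 among them, and 5 fell with Drug_0120, beside 36.0% and 45.5% of all tested genes. With Drug_CN27, 9 rose and 2 fell, beside 43.7% and 26.6%.

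Among 10696 candidate genes with a mean of at least 5 TPM, those whose centred log2(TPM + 1) values lay nearest to a member over the 6 libraries were as follows. SLC7A11, the cystine transporter, was nearest to LAMP3 (Euclidean distance 0.33), with 10.4 TPM in vehicle, 86.1 TPM with Drug_0120 and 180 TPM with Drug_CN27, followed by ASNS, asparagine synthetase (0.90), and S100P (1.26). ASNS was nearest to MIOX (0.53), followed by SPX (0.73) and UNC13D (0.74). Nearest to UNC13D were VLDLR, a lipoprotein receptor (0.30), SH3BGR (0.41) and RCAN2, a calcineurin inhibitor (0.41). Nearest to S100P were HIST1H2AC (0.84), uncertain because of near-identical copies, SLC3A2, the heavy chain of the cystine and leucine transporters (0.87), and EPAS1, which encodes the hypoxia factor HIF-2α (1.01). Between members the distances ran from 0.74 for MIOX and UNC13D to 2.85 for S100P and UNC13D.

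SLC7A11, ASNS, SLC3A2 and VLDLR, among these near genes, are also in the list of ATF4 targets set beside the members. The distances use the Drug_CN27 and vehicle values that chose the members, so nearness to other large rises, ATF4 targets among them, is bound up with that choice and supports nothing. In that list all 28 tested genes rose with Drug_CN27, where 43.7% of all tested genes were called higher. The median log2 difference was 2.09 against 0.15 for all. SHMT2 lost its call with median-of-ratios scaling, at a log2 difference of 0.11. With Drug_0120, 21 rose and 6 fell, beside 36.0% and 45.5%, with a median of 1.13 against -0.10. Among the 21, MTHFD2 had a log2 difference of 0.20, and among the 6, ALDH1L2 lost its call with median-of-ratios scaling. CHAC1 was at 7.25, 64.4 and 390.1 TPM in vehicle, Drug_0120 and Drug_CN27, and ASNS at 203, 750.3 and 2596 TPM. CHAC1 and ASNS thus had the order of levels of LAMP3, MIOX and UNC13D, with Drug_0120 between vehicle and Drug_CN27. That order was not general in the list, and the 6 genes that fell with Drug_0120 did not have it. ATF4 itself, at 467, 1216 and 1159 TPM, and SLC3A2, at 186, 1647 and 1014 TPM, were higher with Drug_0120 than with Drug_CN27. PCK2, at 74.8, 57.6 and 775 TPM, was called lower with Drug_0120 (log2 change -0.37, limma adjusted p = 0.000773).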

How the data were processed

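The deposited table gives the authors' TPM per gene, 1 column per library. Per the submitters' processing notes, the tools were STAR and StringTie and the build hg19; no source used here gives their versions, the annotation, the strand setting or filters. Of 20315 rows, 18 duplicate rows of pseudoautosomal genes were dropped, and 27 symbols that a spreadsheet had turned into dates were named again. Libraries were assigned to groups and replicate numbers by their titles.

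Values were analysed as log2(TPM + 1). Genes had to reach at least 1 TPM in 2 or more libraries, which left 13606, and were fitted with limma 3.58.1 in R 4.3.3 (eBayes with a trend, all 6 libraries, no replicate block). Benjamini-Hochberg adjustment ran over all of them, with a threshold of 0.05. The fit had 3 residual and 5.33 prior degrees of freedom, so most of its error estimate comes from other genes. Separate cultures are not stated for the replicates, so the p-values may reflect technical spread alone.

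The members and lists were chosen with earlier results of these data known. In each list up to 3 called genes with the largest rise and fall were named. Others, STX4, EZR, AGER, SLC5A3, UNC13B and UNC13C among them, were named outside that rule. Also named were the 2 protein-coding genes on each side of a member in RefSeq gene order (GRCh38.p14, names only) and the 3 genes nearest in pattern. Close copies were sought with blastn 2.17.0 among GENCODE release 29 transcripts in place of a planned protein comparison, which was not run. Replicates correlated at r = 0.994 to 0.996 across tested genes. Alternatives were another pseudocount, filters, scalings, a replicate block and leaving out each library.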

Additional observations from a re-analysis of the deposited data

How the results depend on the processing

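All 4 rises with Drug_0120 kept their direction and stayed below the threshold under each of the 12 alternatives they were run with; the limma adjusted p ran up to 7.87e-06 for LAMP3, 0.000199 for MIOX, 5.49e-06 for S100P and 0.000814 for UNC13D, and the log2 change from 2.66 to 3.63, 1.25 to 1.93, 3.32 to 3.61 and 0.72 to 1.19. The described differences of Drug_CN27 from vehicle moved beyond the spread between replicates with a pseudocount of 0.1 (LAMP3 4.78, MIOX 4.13, UNC13D 3.67), which weighs less on low vehicle levels. They moved with median-of-ratios scaling (LAMP3 3.64, UNC13D 2.75) and quantile normalization (UNC13D 2.77). The differences of Drug_CN27 from Drug_0120 moved with median-of-ratios scaling (LAMP3 0.81, MIOX 1.75, S100P -0.42, UNC13D 1.88), with quantile normalization (LAMP3 0.79, MIOX 1.63, S100P -0.45, UNC13D 1.70) and with a pseudocount of 0.1 (MIOX 2.20, UNC13D 2.48). Scaling shifts all genes: the median tested gene was at -0.10 with Drug_0120 and 0.15 with Drug_CN27 as deposited, and at 0.00 and 0.00 with median-of-ratios scaling. Leaving out a library moved the Drug_CN27 differences from vehicle within 3.72 to 3.86 (LAMP3), 3.26 to 3.57 (MIOX), 3.15 to 3.38 (S100P) and 2.84 to 2.97 (UNC13D).

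The replicate number gave only 2 pairs per comparison, and same-numbered deviations correlated at 0.164, 0.150 and 0.110, so the number is not taken to pair samples. With a replicate block the log2 differences of the members were the same by construction, and calls were 5143 higher and 6383 lower with Drug_0120 and 6369 and 3915 with Drug_CN27, against 4903, 6189, 5948 and 3624 without it. Among the list genes, those that passed with the block and not without it were SLC5A3 in both comparisons, XYLB with Drug_CN27, and AGER, SYTL2, NUPR1 and COL1A1 with Drug_0120; no list gene lost its call. In the fits that leave out a library, the lone library of a group is assumed to vary like the others.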
